A study of Mus musculus with 2 samples.

Results

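The splicing regulators described here are the mouse genes of the SR protein (Srsf), heterogeneous nuclear ribonucleoprotein (Hnrnp) and polypyrimidine tract binding protein (Ptbp) families. They were taken as the protein-coding gene rows whose symbol is Srsf or Hnrnp followed by a family number or letter code, or Ptbp1, Ptbp2 or Ptbp3. This gave 34 genes of 21474 protein-coding genes, with 11 SR protein genes, 20 hnRNP genes and 3 PTB genes. The measurements come from poly(A) RNA sequencing of G1E-ER4, a mouse erythroid line, labelled male, derived from Gata1-null cells and carrying GATA-1 fused to an oestrogen receptor domain that hormone activates. Both libraries were made from cells given 10 nM 17beta-estradiol for 24 hours, labelled as replicates 1 and 2 of 1 group. An untreated control was not analysed here, so no condition was compared and no p-value is given. As a cell line the sample lacks the tissue around erythroid cells in an animal. The libraries held 20412826 and 18564086 expected counts, where an expected count is an estimate that divides a read among the transcripts it fits. Levels are given as TPM, a unit in which counts are divided by transcript length and scaled to the same total in every library, so that genes can be compared. All 7 erythroid markers examined were at 92.5 TPM or more in both libraries, Klf1 among them at 411 and 413 TPM. Gata1, at 2714 and 3180 TPM, is no independent marker here, since the line carries an introduced GATA-1 fusion and its reads cannot be told apart from those of the construct. None of the 14 nerve, muscle, epithelial and lymphoid markers was detected, while 1 of 4 granulocyte and macrophage markers, Cd68, had 2.76 and 3.51 TPM and 1 of 3 mast cell markers, Kit, which early erythroid cells also carry, had 11.9 and 12.6 TPM. In bulk RNA, fewer cells of a type and less RNA per cell cannot be told apart.

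SR proteins bind short purine-rich and related motifs in exons through RNA recognition domains, and their arginine-serine tails recruit the spliceosome, so they mostly favour inclusion of an exon. The hnRNPs coat nascent RNA and often oppose inclusion, and PTB proteins bind pyrimidine tracts and commonly cause an exon to be skipped. Many genes of these families are known to restrain their own expression by splicing in an exon, or retaining an intron, that carries a premature stop codon, which sends the transcript to nonsense-mediated decay (NMD). In erythroid precursors, regulated splicing is known for the membrane skeleton gene Epb41 among others.

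The exons on which the results below turn are printed from GENCODE M21 transcripts on GRCm38, in the direction of the transcript. Only coding sequence and a premature stop codon are shown. The first pair are the beginnings of exons that mark the most abundant Srsf6 and Hnrnpll transcripts, both annotated as NMD targets, with the premature stop codon in capitals. The Srsf6 stretch lies at chr2:162932815-162932966 on the plus strand and belongs to an exon of 268 bases. The Hnrnpll stretch lies at chr17:80044976-80045022 on the minus strand and belongs to an exon of 83 bases.
Srsf6 exon up to its stop: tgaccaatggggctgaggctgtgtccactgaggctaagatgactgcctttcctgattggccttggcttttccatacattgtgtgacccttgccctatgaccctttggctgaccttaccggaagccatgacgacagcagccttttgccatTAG
Hnrnpll exon up to its stop: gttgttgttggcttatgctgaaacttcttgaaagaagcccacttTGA

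The Ptbp genes share a coding exon of 34 bases. In Ptbp1 and Ptbp2 its skipping is known to shift the reading frame, and PTBP1 is known to repress it. It lies at chr10:79862014-79862047 (plus strand) in Ptbp1, chr3:119724612-119724645 (minus strand) in Ptbp2 and chr4:59485339-59485372 (minus strand) in Ptbp3. The capitals mark the 19 of 34 bases that are identical in all 3 genes.
Ptbp1 exon: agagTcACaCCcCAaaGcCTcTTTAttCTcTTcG
Ptbp2 exon: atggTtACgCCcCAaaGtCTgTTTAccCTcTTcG
Ptbp3 exon: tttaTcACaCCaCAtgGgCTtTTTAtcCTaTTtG

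Ptbp1 and Ptbp2 were identical at 26 of these bases, Ptbp1 and Ptbp3 at 22, and Ptbp2 and Ptbp3 at 21. The next 4 exons are alternatively included coding exons whose length is a multiple of 3, so that including or skipping them keeps the reading frame. The Ptbp1 exon of 78 bases is at chr10:79860117-79860194 (plus strand), the Hnrnpd exon of 147 bases at chr5:99963731-99963877 (minus strand) and the Hnrnpab exon of 141 bases at chr11:51601750-51601890 (minus strand). The last is the Epb41 exon of 63 bases at chr4:131962924-131962986 (minus strand). Epb41 is not one of the 34 genes but a target of hnRNP A/B proteins.
Ptbp1 exon of 78 bases: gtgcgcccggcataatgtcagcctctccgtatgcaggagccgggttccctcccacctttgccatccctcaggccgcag
Hnrnpd exon of 147 bases: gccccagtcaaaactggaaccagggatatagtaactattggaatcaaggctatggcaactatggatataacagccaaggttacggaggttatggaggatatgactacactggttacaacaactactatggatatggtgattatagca
Hnrnpab exon of 141 bases: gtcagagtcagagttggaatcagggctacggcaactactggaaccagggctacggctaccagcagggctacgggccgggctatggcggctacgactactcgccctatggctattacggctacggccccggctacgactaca
Epb41 exon of 63 bases: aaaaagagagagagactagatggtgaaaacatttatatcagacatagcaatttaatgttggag

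The induced cells carried RNA of nearly the whole set. Of the 34 genes, 33 reached 1 TPM in both libraries, against 41.2% of all protein-coding genes. A level of 100 TPM or more in each library was found for 19 of 34, against 5.52% of all protein-coding genes. The median over the 34 genes was 142 ± 7.74 TPM (SD, n = 2), and 161 TPM over the 33 detected ones, against 0.080 TPM over all protein-coding genes and 20.8 TPM over all detected ones. The hnRNP genes had the highest family median, 267 ± 30.5 TPM, beside 123 ± 24.5 TPM for the 3 PTB genes and 92.6 ± 5.76 TPM for the SR protein genes (SD, n = 2 each). In each case the value is the median of the genes' mean TPM, whereas the SD is that of the medians taken in each library. Those library medians were 141 and 152 TPM for the 34 genes and 283 and 240 TPM for the hnRNPs. The PTB and SR medians changed order when only detected genes were counted, with 123 TPM for PTB genes and 127 TPM for SR genes. On transcripts annotated protein-coding the medians were 161 TPM for hnRNPs, 42.1 TPM for SR genes and 41.7 TPM for PTB genes. Summed, the 34 genes held 0.785% ± 0.0845 of all TPM, of which the hnRNPs held 0.572%, the SR proteins 0.153% and the PTB proteins 0.0605%.

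**Figure D1:**
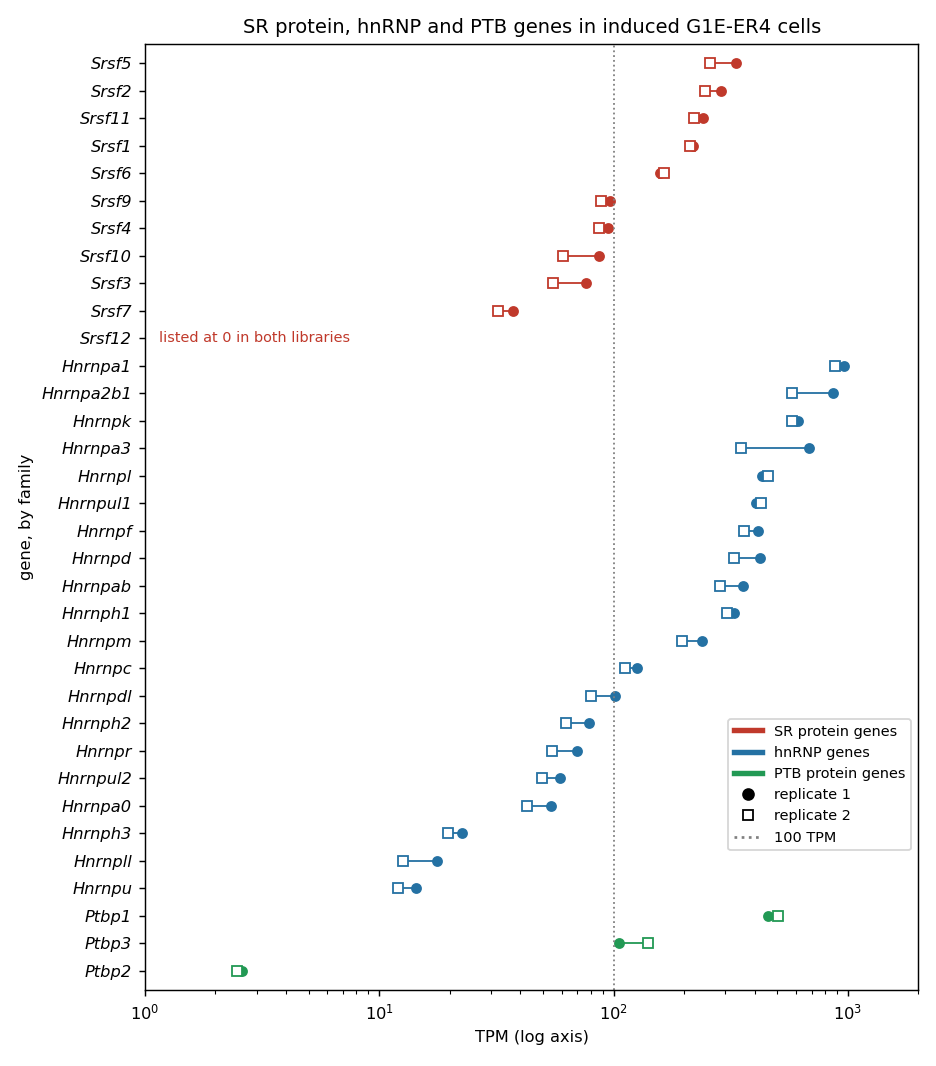
Level of each gene in TPM (horizontal log axis) in replicate 1 (filled circles) and replicate 2 (open squares), with genes ordered by mean level within the SR protein, hnRNP and PTB families; the dotted line marks 100 TPM. Hnrnpa1 stands highest at 962 and 880 TPM, Ptbp2 lowest of the detected genes at 2.60 and 2.47 TPM, and Srsf12 is listed at 0 in both libraries.

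Among the SR protein genes, 5 of 11 passed 100 TPM in both libraries. Srsf5 had 332 and 259 TPM in replicates 1 and 2, and Srsf2, which encodes a factor known for binding exonic enhancers, had 288 and 246 TPM. Srsf11, an SR-related gene, had 240 and 220 TPM. Srsf1, the prototype of the family, had 217 and 212 TPM. Srsf6 had 157 and 164 TPM. These 5 were followed by a middle group in which Srsf9, the closest relative of Srsf1, had 96.7 and 88.5 TPM and Srsf4 had 95.1 and 86.4 TPM, so that the ranges of these last 2 overlapped. Srsf10, known as a splicing repressor when dephosphorylated, had 86.6 and 61.1 TPM. Srsf3, the smallest of the family and also an mRNA export adaptor, had 76.3 and 55.0 TPM. The ranges of Srsf10 and Srsf3 overlapped as well. Srsf7, whose protein has a zinc knuckle, was lowest of the detected SR genes with 37.2 and 32.1 TPM. Srsf12, a relative of Srsf10, had no count in either library. A count of 0 allows up to 3 counts, or 0.147 and 0.162 CPM (counts scaled to depth without division by length), and this floor covers counting error only.

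All 20 hnRNP genes were detected and 12 passed 100 TPM in both libraries. Proteins of the A/B group bind UAG-type motifs and are known exon silencers. Hnrnpa1, highest of the family, had 962 and 880 TPM, which ranked it 123 among protein-coding genes. Hnrnpa2b1 had 860 and 576 TPM, and Hnrnpa3 had 683 and 351 TPM. The ranges of Hnrnpa2b1 and Hnrnpa3 overlapped, and that of Hnrnpa1 lay above both. Hnrnpa0, a gene with 1 listed transcript, was far lower with 54.3 and 42.9 TPM. Hnrnpab, which encodes a relative of AUF1, had 356 and 283 TPM. Hnrnpd encodes AUF1, a binder of AU-rich elements that acts in mRNA decay, and had 421 and 328 TPM, whereas its relative Hnrnpdl had 102 and 80.3 TPM.

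The remaining hnRNP genes covered other binding preferences. Hnrnpk, a C-tract binder, had 613 and 580 TPM, and Hnrnpl, known for CA repeats, had 431 and 454 TPM. Hnrnpul1, a relative of Hnrnpu, had 407 and 428 TPM. The G-tract binders Hnrnpf and Hnrnph1 had 414 and 359 TPM and 327 and 305 TPM, and Hnrnph2, which lies on chromosome X, had 78.5 and 62.6 TPM. Hnrnpm had 239 and 196 TPM, and Hnrnpc, a U-tract binder, had 126 and 112 TPM. Below 100 TPM in both libraries were Hnrnpr with 70.1 and 54.6 TPM, Hnrnpul2 with 58.9 and 49.3 TPM and Hnrnph3 with 22.6 and 19.6 TPM. Hnrnpll, known for controlling Ptprc (CD45) exons in lymphocytes, had 17.6 and 12.7 TPM. Hnrnpu, which encodes the nuclear scaffold protein SAF-A, was lowest by TPM with 14.4 and 12.0 TPM, and its range overlapped that of Hnrnpll. That place depends on length, since its coding model has 7640 bases. In CPM, Hnrnpu had 66.3 and 51.9, above Hnrnpll with 39.1 and 28.0 and Hnrnph3 with 31.0 and 27.1.

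The PTB genes were widely spaced. Ptbp1 had 458 and 501 TPM, Ptbp3, known from haematopoietic cells, had 106 and 140.6 TPM, and Ptbp2, the neural member, had 2.60 and 2.47 TPM. No ranges overlapped among these 3 genes. Ptbp1 exceeded Ptbp2 by 7.56 ± 0.14 on the log2 scale (SD, n = 2), or 189-fold, and exceeded Ptbp3 by 1.97 ± 0.20. Ptbp2 rested on 139 and 120 expected counts, all on a transcript that contains the 34-base exon printed above. That transcript is the 1 listed for Ptbp2, so a form that skips the exon could not be measured.

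The share of a gene's TPM held by each annotated class of transcript could be read for 29 of the 34 genes, those with more than 1 listed transcript and at least 20 expected counts in both libraries. Some of them had most of their TPM on transcripts not annotated as protein-coding. In both libraries, 9 of 29 genes had 50% or more of TPM on such transcripts, against 16.7% of all 6785 protein-coding genes that could be read in the same way. The median share on such transcripts was 27.8% over the 29 genes and 10.6% over all 6785. At 20% or more on NMD or retained-intron transcripts there were 10 of 29, against 22.5%. For NMD transcripts alone there were 6 of 29, against 8.21%. Among genes with a listed NMD transcript the count was 6 of 16, against 28.3%. By expected counts, which are not divided by length, 5 genes in place of 9 had 50% or more on transcripts not annotated as protein-coding. On NMD transcripts, 5 in place of 6 had 20% or more by expected counts, without Srsf2. The matching shares of all genes by expected counts are not given, so these counts cannot be set against the 16.7% and 8.21% by TPM.

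**Figure D2:**
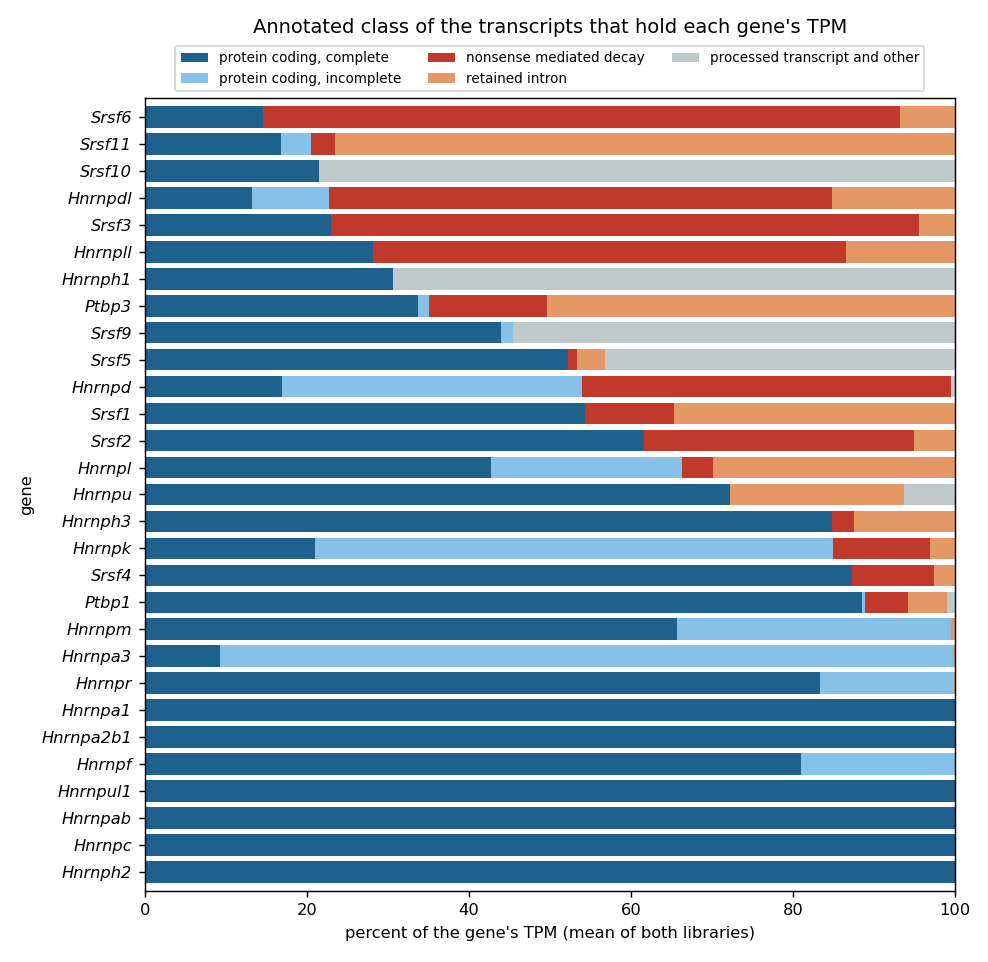
Percent of each gene's TPM (horizontal axis, mean of both libraries) on complete and incomplete protein-coding models, NMD transcripts, retained-intron transcripts and processed or other transcripts, for the 29 genes that could be read. Srsf6, Srsf3, Hnrnpdl and Hnrnpll carry most of their TPM on NMD transcripts, Srsf11 on retained-intron transcripts, and Hnrnpa3 on an incomplete protein-coding model.

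Srsf6 (ENSMUSG00000016921) had the largest NMD share of the 29 genes. Its transcript Srsf6-201, which contains the 268-base exon with the stop codon printed above, held 74.0% and 83.1% of the gene's TPM in replicates 1 and 2. The coding transcript Srsf6-203 held 16.9% and 12.4%, and a retained-intron transcript held 9.09% and 4.49%. The NMD transcript thus led in both libraries, with 3044 and 3248 expected counts against 1486 and 1036 for the coding one. Inclusion of the 268-base exon, estimated as the TPM of transcripts with the exon over that of transcripts spanning the position, was 84.2% ± 3.96 (SD, n = 2). The 2 models also differ at their ends, since Srsf6-203 has 2129 bases that Srsf6-201 lacks, with a longest run of 2095. Reads over the shared exons are divided by the estimate, so a difference in the exon and a difference in the 3' end cannot be told apart from these values.

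Srsf3 (ENSMUSG00000071172) showed the same kind of split. Its NMD transcript Srsf3-201 held 71.1% and 74.0% of TPM, and the coding transcript Srsf3-202 held 24.6% and 21.3%. The model of Srsf3-201 has 1919 bases in the deposited tables and another length in the annotation used here, so its exons as quantified are not known. The same holds for the coding Srsf3-202, with 2566 bases in those tables and 2618 in the annotation. Hnrnpll-203, which contains the 83-base exon printed above, held 58.7% and 58.3% of Hnrnpll TPM, and the coding Hnrnpll-205 held 26.5% and 26.4%. Inclusion of the 83-base exon was 63.3% ± 0.474 (SD, n = 2). These models also differ by 350 bases present in Hnrnpll-205 alone.

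Hnrnpdl-205, also annotated as an NMD target, held 63.4% and 55.4% of Hnrnpdl TPM, and both NMD transcripts of the gene together held 62.2% ± 5.04. Hnrnpd had 45.6% ± 2.08 of its TPM on NMD transcripts. Srsf2 had 36.03% and 30.6% of TPM, but 17.9% and 14.98% of expected counts, on NMD transcripts. Its NMD transcript with reads, Srsf2-204, lay below its coding transcript Srsf2-206, which had 38.5% and 47.5% of TPM. The margin between these transcripts of Srsf2 was 2.49 percentage points in replicate 1 and 16.8 in replicate 2. All 14 NMD factors examined were detected, with a median of 39.8 TPM. Eif4a3, an exon junction complex helicase, had 164 and 175 TPM and Smg1, the kinase of the pathway, had 9.49 and 9.17 TPM.

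Retained-intron transcripts took the larger part in other genes. Srsf11 had 78.9% and 74.1% of TPM on them, mostly on Srsf11-207, whose length also differs between the tables and the annotation. Ptbp3 had 47.1% and 53.5% of TPM on retained-intron transcripts, but 12.2% and 19.1% of its expected counts, because the main one, Ptbp3-209, is a short model of 669 bases. Srsf1 had 31.8% and 37.5% of TPM on retained-intron transcripts, and Hnrnpl 31.4% and 28.2%. By expected counts the retained-intron shares were 18.3% and 22.8% for Srsf1 and 21.2% and 20.6% for Hnrnpl. For Srsf11 they were 59.5% and 54.55%. Srsf10, Hnrnph1 and Srsf9 had 78.5% ± 1.49, 69.4% ± 5.25 and 54.5% ± 0.198 of TPM on processed transcripts, a class of models without an annotated reading frame. By expected counts these shares were 33.9%, 42.6% and 32.7%.

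Other hnRNP genes had most of their TPM on coding models. Hnrnpa1, Hnrnpa2b1, Hnrnpab, Hnrnpc, Hnrnph2 and Hnrnpul1 had all of their TPM on complete protein-coding models, as the plot of transcript classes shows. No transcript of another class is listed for these genes, so NMD or retained-intron forms of them could not be measured. Hnrnpa3 had 91.5% and 89.5% on Hnrnpa3-206, an incomplete coding model of 754 bases. Its complete coding models held 57.1 and 35.96 TPM of the 683 and 351 TPM of the gene, so the rank of Hnrnpa3 rests on a short fragment. Hnrnpk likewise had 64.0% of TPM on incomplete coding models. The transcript with the largest share of TPM was the same in both libraries for each of the 29 genes, against a difference in 15.8% of all 6785 genes. The 6785 genes were admitted from 20 expected counts in each library. The lowest count among the 29 was 503, for Hnrnph3 in replicate 2. The sets were thus not matched in counts, and this contrast cannot be read as a trait of the 29 genes. By expected counts it differed for 3 of the 29, and the share of all genes by that measure is not given.

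For exons that keep the reading frame, the estimated inclusion depended on which models were counted. The 36-base exon of Hnrnpa2b1 that distinguishes the B1 form from A2 was included at 9.64% and 12.7% by TPM and 20.99% and 26.7% by expected counts, and the length of its model differs between the tables and the annotation. The 141-base exon of Hnrnpab was included at 60.2% and 57.3% by TPM and 47.6% and 44.6% by expected counts. The 147-base exon of Hnrnpd was included at 48.7% and 46.9% by TPM, but at 0.804% and 1.08% on complete protein-coding models alone. The only such model with the exon, Hnrnpd-211, had 44.41 and 32.55 expected counts. Its length differs between the tables and the annotation, so its exons as quantified are not known. Most of the TPM with the 147-base exon of Hnrnpd was on Hnrnpd-204, an NMD transcript that ends otherwise than the coding ones. The 57-base exon of Hnrnpd, at chr5:99976534-99976590, was included at 66.3% and 73.0% by TPM, 38.99% and 46.8% by expected counts and 2.58% and 3.54% on complete protein-coding models. Its TPM rests mainly on Hnrnpd-210, an incomplete model of 493 bases, and Hnrnpd-202 without the exon has 1101 bases that Hnrnpd-210 lacks. Hnrnpab-201, the form without the exon, has 1074 other bases that Hnrnpab-203 lacks, so for Hnrnpab the exon and the end of the model again cannot be told apart.

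The 78-base exon of Ptbp1, which lies between RNA recognition domains and whose skipping is known to weaken repression by PTBP1, was included at 13.7% and 16.1% over all models that span it. The including models hold the NMD fragment Ptbp1-207, and on complete protein-coding models alone inclusion was 6.46% and 12.6%. Its 34-base exon was included at 92.5% and 96.4%, with the skipping form, Ptbp1-207, annotated as an NMD target. Ptbp1-207 held 7.09% and 3.37% of Ptbp1 TPM, on 424 and 200.8 expected counts. The annotated NMD form thus held a small part of Ptbp1 TPM in both libraries, in contrast to the shares in Srsf6 and Srsf3. Ptbp1-202, the leading model with the 34-base exon, has 1828 bases that Ptbp1-207 lacks. The exon and the other differences between these models therefore cannot be told apart.

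**Figure D3:**
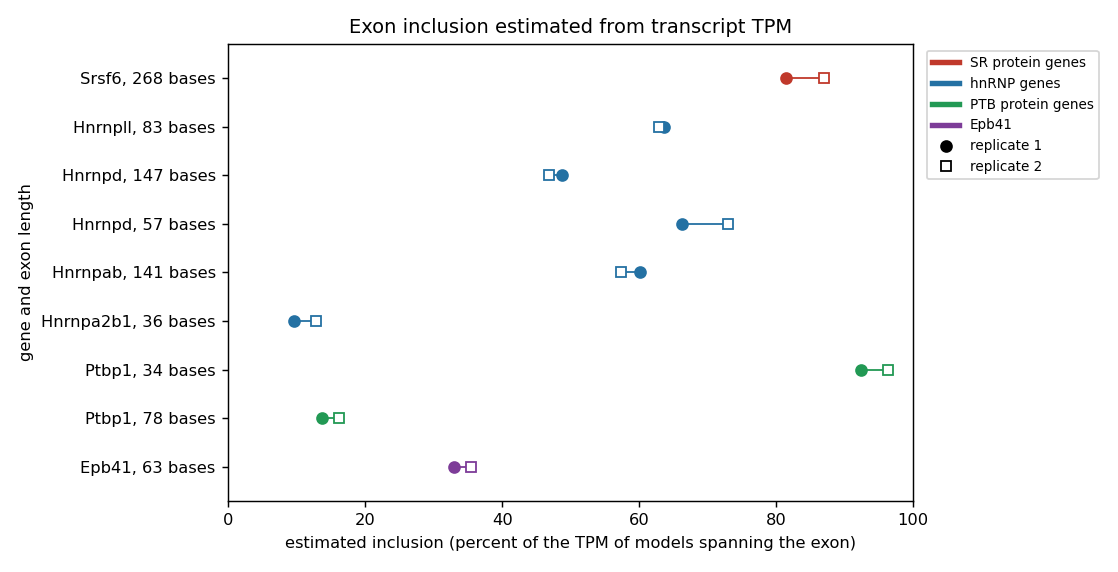
Estimated inclusion (horizontal axis, percent of the TPM of transcript models that span the position) of 8 exons of the splicing factor genes and of the Epb41 exon, in replicate 1 (filled circles) and replicate 2 (open squares). The Srsf6 exon with a premature stop lies at 81.4% and 87.0%, and the exon of Hnrnpa2b1 and the 78-base exon of Ptbp1 both lie below 20%. The exons of Hnrnpd and Epb41 lie between 32.9% and 73.0% here but at 4.27% or less on complete protein-coding models.

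Genes known as targets of these proteins were read in the same libraries. In Pkm, hnRNP A1, hnRNP A2/B1 and PTBP1 are known to repress the upstream of 2 mutually exclusive exons of 167 bases, which makes the M1 form of pyruvate kinase, while the downstream one makes M2. The upstream exon, at chr9:59675029-59675195, belongs to Pkm-202, which held 20.3% and 20.8% of Pkm TPM. The downstream exon, at chr9:59675568-59675734, belongs to Pkm-201, which held the other 79.7% and 79.3%. The length of Pkm-202 differs between the tables and the annotation. The 63-base exon of Epb41, whose inclusion is known to increase late in erythroid differentiation and which hnRNP A/B proteins silence, was included at 32.9% and 35.5%. By expected counts its inclusion was 25.8% and 27.4%. The leading model with the exon, Epb41-216, is incomplete, and on complete protein-coding models alone inclusion was 4.27% and 2.04%.

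Because transcripts of different classes share a gene row, the order of related genes depended on which transcripts were counted. The first gene was higher in both libraries in 11 of 12 pairs of related genes by gene TPM. The pairs and the order within them were fixed with earlier results of these data known, so this count is a description only. Hnrnpl exceeded Hnrnpll by 4.89 ± 0.39 on the log2 scale, Hnrnpul1 exceeded Hnrnpul2 by 2.95 ± 0.23 and Hnrnph1 exceeded Hnrnph2 by 2.17 ± 0.16 (SD, n = 2 each). Hnrnpd exceeded Hnrnpdl by 2.04 ± 0.01, Srsf2 exceeded Srsf10 by 1.87 ± 0.20 and Srsf1 exceeded Srsf9 by 1.22 ± 0.07. These differences were larger than their spread over the libraries, and their direction held by expected counts and by coding TPM. Hnrnpa2b1 over Hnrnpa3 was 0.52 ± 0.27 and Hnrnpa1 over Hnrnpa2b1 was 0.39 ± 0.32, so Hnrnpa1 and Hnrnpa2b1 differed by little more than the SD.

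2 pairs turned round when only transcripts annotated protein-coding were counted. They did so in opposite directions, so the count of pairs with the first gene higher stayed at 11. Srsf3 over Srsf7 was 0.91 ± 0.18 on the log2 scale by gene TPM and -1.22 ± 0.33 by coding TPM. Srsf3 had 18.8 and 11.7 TPM of coding transcripts, while Srsf7 had 37.2 and 32.1 TPM. Only 1 transcript, a coding one, is listed for Srsf7, so none of its TPM could be left out. NMD or retained-intron forms of Srsf7 could not be measured, so in this pair the restriction acted on Srsf3 alone. Srsf4 over Srsf6 was -0.82 ± 0.14 by gene TPM and 1.77 ± 0.17 by coding TPM, with 83.4 and 75.2 TPM of coding transcripts for Srsf4 and 26.5 and 20.3 TPM for Srsf6. By coding TPM, Srsf6 ranked 26 of the 34 genes in place of 17, Srsf3 30 in place of 25 and Srsf11 22 in place of 14. By coding TPM, Hnrnph1 over Hnrnph2 was 0.45 ± 0.09, Ptbp1 over Ptbp3 3.36 ± 0.34 and Hnrnpl over Hnrnpll 6.13 ± 0.35. Hnrnpd over Hnrnpdl was 3.29 ± 0.06 and Srsf2 over Srsf10 3.39 ± 0.20 by the same measure. Each of these ratios was over 1.5-fold away from the ratio by gene TPM. Only coding models are listed for Hnrnph2, so there too the restriction acted on the first gene alone. By expected counts, which carry transcript length, Hnrnpa2b1 over Hnrnpa3 was 1.52 ± 0.23, Hnrnpl over Hnrnpll 4.11 ± 0.34, Hnrnpd over Hnrnpdl 0.91 ± 0.05, Hnrnph1 over Hnrnph2 1.35 ± 0.01, Hnrnpul1 over Hnrnpul2 2.20 ± 0.23 and Srsf1 over Srsf9 1.90 ± 0.01.

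**Figure D4:**
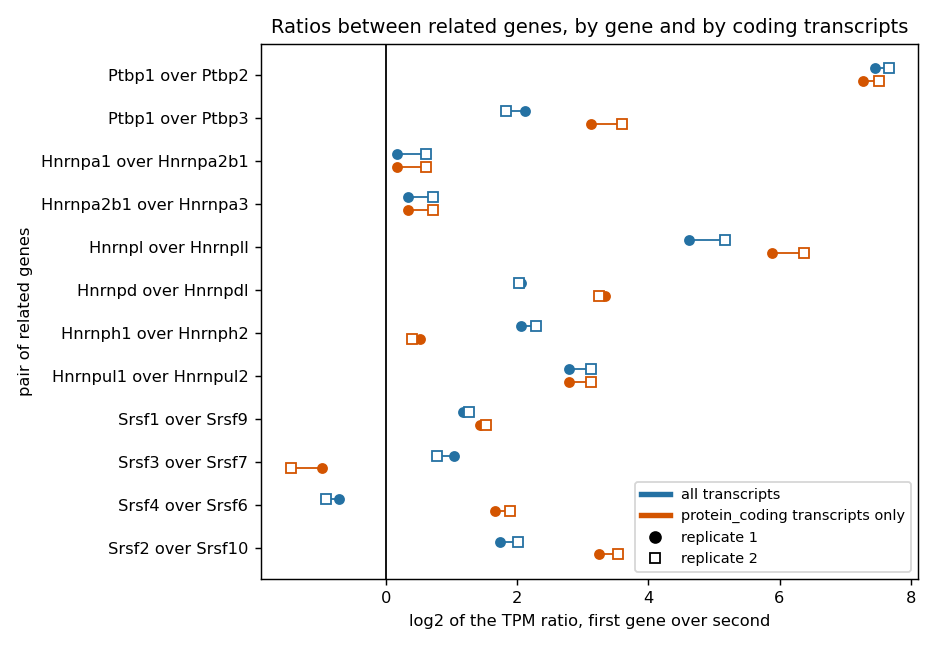
log2 ratio of TPM between the genes of each pair (horizontal axis, first gene over second) from all transcripts of the gene (blue) and from transcripts annotated protein-coding (orange), in replicate 1 (filled circles) and replicate 2 (open squares). Srsf3 over Srsf7 lies above 0 by gene TPM and below 0 by coding TPM, and Srsf4 over Srsf6 lies on the opposite sides.

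The libraries differed by a small amount in 1 direction across most of the set. On expected counts with TMM scaling, which removes the overall difference in depth and composition, 31 of 33 genes with counts were higher in replicate 1, against 50.6% of all protein-coding genes tested. The median log2 ratio of replicate 1 over replicate 2 was 0.25 over the 33 genes and 0.0036 over all 8597 genes tested. By family the median was 0.31 for the 20 hnRNPs, 0.17 for the 10 SR proteins with counts and 0.03 for the 3 PTB proteins. With total counts for scaling the number was 31 of 33 and with DESeq2 size factors 30 of 33, where Hnrnpl, at 0.00035 with TMM, changed sides. Over 1.5-fold in either direction there was 1 of 33 genes, against 2.35% of all genes tested, and 2.02% for replicate 1 higher.

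That gene was Hnrnpa3, with 10003 and 5053 expected counts and a ratio of 1.79-fold, log2 0.84 with an exact 95% Clopper-Pearson interval from 0.79 to 0.89. Hnrnpa2b1 followed at log2 0.51 and Hnrnpll at 0.48. In the opposite direction lay Ptbp1 at -0.17, with an interval from -0.20 to -0.14, and Hnrnpul1 at -0.08. The intervals cover counting error only. Among other splicing genes, 14 of 19 SR-related genes, 17 of 28 hnRNP-like genes, 8 of 20 core recognition factors and 7 of 14 NMD factors were higher in replicate 1. By TPM, which is not TMM-scaled, the adult globin gene Hbb-bs was lower in replicate 1, at 61175 and 69726 TPM. Gata1, whose reads cannot be told apart from those of the construct, had 2714 and 3180 TPM. Hba-a2 had 35824 and 42224 TPM and Slc4a1 had 578 and 622 TPM. The other erythroid markers differed less, with Klf1 at 411 and 413 TPM, Alas2 at 906.5 and 929 TPM and Epor at 92.5 and 96.65 TPM. The part of these differences in the result was not tested.

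**Figure D5:**
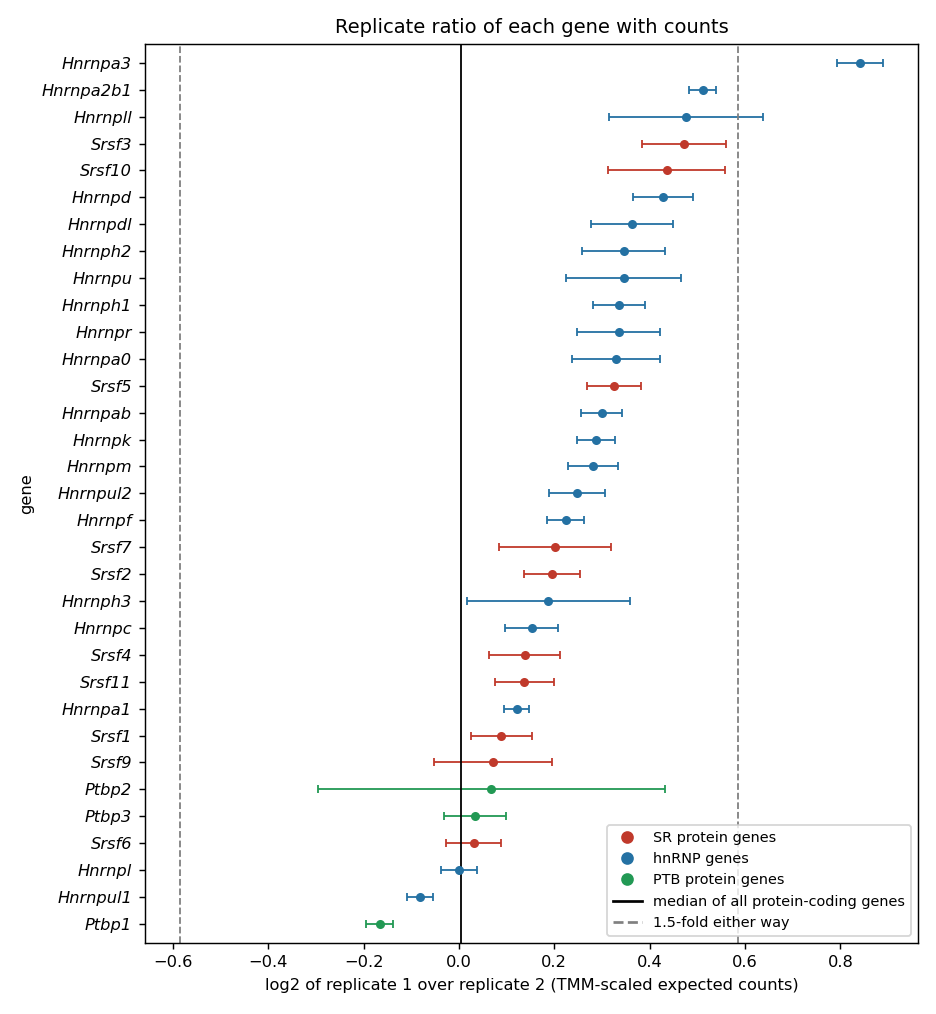
log2 ratio of replicate 1 over replicate 2 (horizontal axis, TMM-scaled expected counts) for the 33 genes with counts, with exact 95% Clopper-Pearson intervals that cover counting error only. The black line is the median of all protein-coding genes tested and the dashed lines are 1.5-fold either way; Hnrnpa3 lies beyond them at 0.84 and Ptbp1 is lowest at -0.17.

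Reads of 36 bases fit several places for some of these genes. The share of 36-base stretches found in no other gene of the annotation was 34.8% for Hnrnpf, 59.4% for Srsf4, 70.8% for Hnrnpa1, 72.2% for Hnrnpa3, 72.9% for Hnrnpab and 75.3% for Ptbp1, so their levels are less certain. All 36-base stretches of the pseudogenes Gm10052 and Gm5641 were also in Hnrnpa1 and Hnrnpa3, and these had 112 and 73.6 TPM and 100.4 and 85.2 TPM. Gm9761, a pseudogene with 86.9% of its 36-base stretches in Srsf3, was listed at 140.0 and 86.6 TPM, above Srsf3 itself, on 690 and 389 expected counts. With the counts of near copies added, Hnrnpa3 differed 1.63-fold between the libraries. Gm28901, a non-coding gene with 87.9% of its 36-base stretches in Hnrnpf, was listed at 172 and 260 TPM. Exons of Hnrnpab, Hnrnpd, Hnrnpk, Hnrnpu, Srsf2 and Srsf4 overlap detected genes on the opposite strand, and those of Hnrnpm overlap a gene on its own strand. Since the use of strand in counting is not stated, reads of such overlaps cannot be told apart.

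Other splicing genes gave the setting in which the 34 genes were expressed. Of 20 SR-related proteins and SR kinases, 19 were detected, with a median of 56.7 TPM. In that list Srrm1, a splicing coactivator, was highest with 544 and 593 TPM, Tnpo3, the importer of SR proteins, had 59.8 and 55.4 TPM, Rnps1 had 61.6 and 50.01 TPM, and the kinase gene Srpk2 had 3.41 and 2.91 TPM. Of 33 hnRNP-like and other widely expressed regulators, 28 were detected, with a median of 80.2 TPM. Ewsr1 was highest with 1586 and 1614 TPM, Tial1 had 82.1 and 78.3 TPM, Celf1 had 65.4 and 67.4 TPM, and Mbnl2, lowest of those detected, had 10.7 and 10.8 TPM.

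All 20 core recognition factors were detected, with a median of 141.4 TPM, beside 142 TPM for the 34 genes. Sf1, the branch point binding protein, had 345 and 342 TPM, Sf3a2 had 142 and 142 TPM, Snrnp200 had 131 and 151 TPM, and Snrpb2 was lowest with 28.5 and 21.6 TPM. Of 20 tissue-restricted regulators only Nova1 passed 1 TPM in both libraries, with 1.5 and 1.25 TPM. Among the NMD factors, Rbm8a had 50.9 and 40.8 TPM and Magoh had 36.1 and 31.7 TPM, both of the exon junction complex.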

How the data were processed

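Poly(A) RNA of 2 libraries of 1 group was analysed. Per the deposited manifests, each library was quantified separately on mm10 with GENCODE M4, and neither an aligner nor a quantifier is named in those manifests or the labels. The deposited tables hold, per the file headers, expected counts, TPM and posterior mean TPM for each gene and transcript, and the percent of a gene's TPM on each transcript. Depth was 20412826 and 18564086 expected counts. Length minus effective length was 35, as for reads of 36 bases. Symbols, classes and exons came from GENCODE M21 on the same assembly, which matched 42462 of 43346 Ensembl gene rows. Of 242 listed transcripts of the 34 genes, 241 were in M21 and 222 had the same length.

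The genes, the gene lists, the pairs and the rule for named genes were chosen with earlier results of these data known. That rule named every gene at or above 100 TPM in each library, every undetected gene, all Srsf and Ptbp genes, both genes of each pair, the 3 largest replicate ratios in each direction, genes with 20% or more of TPM on NMD or retained-intron transcripts, and up to 4 genes of each other list. The labels do not say whether the libraries came from separate cultures, so an SD measures the spread between these samples, which may be technical. Detection meant 1 TPM or more in both libraries. Class shares needed 20 expected counts in both libraries and were set beside all protein-coding genes read by the same rule. Replicate ratios used expected counts rounded to whole numbers, scaled by TMM (edgeR 4.0.16, R 4.3.3), for genes with 50 or more scaled counts on average, with exact 95% Clopper-Pearson intervals (scipy 1.17.1); DESeq2 1.42.0 size factors were an alternative. The TMM scaling and the 1.5-fold rule were also run on simulated counts, separately from the ratios given here. The outcome of that run is not given. Ratios had no zero, so the pseudocount of 0.01 TPM was not needed. An exon of 1 gene is not reported here.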

Additional observations from a re-analysis of the deposited data

How the results depend on the processing

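No paired analysis was possible because both libraries belong to 1 group. In CPM from expected counts the family median was 150 for SR proteins and 199.7 for PTB proteins. Rescaled over nuclear protein-coding genes without globins it was 134 TPM for SR proteins, 386 for hnRNPs and 178 for PTB proteins, and over detected genes only it was 127 TPM for SR proteins, above PTB proteins. On protein-coding transcripts only it was 42.1, 161 and 41.7 TPM for SR proteins, hnRNPs and PTB proteins. Without either replicate, the count detected was 33 each time, the family medians ranged from 88.5 to 96.7 TPM for SR proteins, from 240 to 283 for hnRNPs and from 106 to 140.6 for PTB proteins, and 11 pairs had the first gene higher each time. Genes with 50% or more of TPM off protein-coding transcripts numbered 9 to 10 and those with 20% or more on NMD transcripts 6 each time. By expected counts, 5 genes had 50% or more off protein-coding transcripts, 5 genes had 20% or more on NMD transcripts and the leading transcript differed for 3 genes. The shares of all genes by that measure are not given. Epb41 exon inclusion was 26.6% by expected counts and 3.15% on complete coding models. At 2-fold, 0 genes differed between the libraries, and no test or p-value was run there. The share of all genes at 2-fold is not given, so this count cannot be set against the 2.35% at 1.5-fold. By coding TPM, Srsf3 over Srsf7 reversed to -1.22 and Srsf4 over Srsf6 to 1.77, because TPM on NMD and retained-intron transcripts is then left out. For Srsf7 no such transcript is listed, so none of its TPM could be left out. Adding near copies left 1 gene over 1.5-fold. That alternative, coding-only medians and other measures of exon inclusion were chosen after seeing the data. In all, 40 of 54 alternatives for summary values and 44 of 73 for single pairs and exons left the result unmoved. Unmoved meant a change below the replicate spread for a value, or below 1.5 times for a count. Leaving out either library always moves a mean over both by less than the SD. The pair alternatives without a replicate were thus bound to be unmoved, and those of family medians nearly so, so these totals do not measure stability. Protein and promoter features of the genes were not run. Short reads, estimated transcript shares and models that differ at their ends limit the exon values, and 19 transcripts have another length in the annotation than in the tables.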
